A study of Mus musculus with 10 samples.

Results

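Iron and heme handling was examined through 10 genes: Hmox1, Blvrb, Fth1, Ftl1, Ncoa4, Tfrc, Slc11a2, Slc11a1, Slc40a1 and Ireb2. They were chosen by name, as the rows of the deposited table that carry these 10 symbols, and make up 10 of its 34745 genes. All 10 were found and all 10 passed the filter on low counts. The messenger RNA came from cells recovered by rinsing the peritoneal cavity, a mixture of leukocytes and of cells shed from its lining, of mice with sepsis after cecal ligation and puncture (CLP), a surgical injury that releases gut contents into the abdomen. The libraries fall into 5 labelled AX and 5 labelled NC. AX was read as amlexanox, an anti-inflammatory compound known to inhibit the kinases TBK1 and IKK-epsilon, and NC as vehicle, since the series compares these 2 treatments, but neither abbreviation is spelled out in the labels. All 10 libraries come from operated animals, so both groups carry the infection, and no unoperated group was analysed here. The sources used here state no strain, sex, age, dose or time after surgery, and not whether each sample is a separate animal. Where samples share an animal, the spread that the p-values rest on may be technical.

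Iron is kept inside ferritin, a shell of heavy (Fth1) and light (Ftl1) chains, and enters cells mainly through the transferrin receptor (Tfrc). Macrophages also gain iron by taking up dying red cells: heme oxygenase 1 (Hmox1) opens the heme ring and releases the iron, which leaves the cell through ferroportin (Slc40a1) or goes into ferritin. In infection, macrophages are known to hold iron back from microbes, and the iron regulatory proteins, of which Ireb2 encodes one, tune ferritin, ferroportin and Tfrc by binding a short hairpin in their messenger RNAs, the iron-responsive element.

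The hairpins are shown because they are a known link to the sensor Ireb2, and the motif used here matched in 4 of the genes. The motif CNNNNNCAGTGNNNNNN, a bulged C and a 6-base loop between 5 paired bases on each side with G-U pairs allowed, was searched on the transcript strand in the untranslated regions (UTRs) of GENCODE M21 protein-coding transcripts on mm10. Capitals mark the loop, and sequences run 5′ to 3′.
Fth1, 5′ UTR: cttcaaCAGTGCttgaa
Ftl1, 5′ UTR: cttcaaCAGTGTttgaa
Slc40a1, 5′ UTR: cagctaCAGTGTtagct
Tfrc, 3′ UTR, first site: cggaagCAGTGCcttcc
Tfrc, 3′ UTR, the second site: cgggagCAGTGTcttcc
Tfrc, 3′ UTR, the third site: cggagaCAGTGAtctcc
Tfrc, 3′ UTR, the fourth site: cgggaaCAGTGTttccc
A match in the 5′ UTR was found in 3 of the 10 genes and in 31 of 21901 protein-coding genes (0.142%), and a match in the 3′ UTR in 1 of the 10 and in 129 of 21901 (0.589%). Not every annotated transcript with the UTR held the site. It was in 4 of 5 for Fth1, 1 of 2 for Ftl1 and 1 of 4 for Slc40a1. Each Tfrc site was in 1 of 2. A site in the 5′ UTR is known to block translation when bound, without need of a change in messenger level, whereas the sites of the Tfrc 3′ UTR are known to protect its messenger from decay. Where no match was found, this motif with all 5 positions of its stem paired is not in these UTRs. Hairpins of another form were not searched for, and nothing more follows.

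Between 10221170 and 13806885 counts were assigned to genes per library, of which 4.47% to 20.1% fell on mitochondrially encoded genes. The leukocyte markers S100a8, S100a9, Lyz2 and Adgre1 were present in all 10 libraries. AX 6 and NC 1 stood apart from the rest: the summed CPM (counts scaled to library size) of 12 mesothelial markers were 2667 in AX 6 and 1164 in NC 1, against 135 to 411 in the other 8, and 8 stromal markers gave 2896 and 1220.0, against 236 to 702. Summed erythroid markers were also highest in AX 6, at 1819 CPM, although the erythroid gene Epor had 0 counts in 9 libraries. Neutrophil markers summed to 6200.1 to 12039 CPM in AX libraries and to 6247 to 11970.2 CPM in NC libraries. In a mixed cell suspension, fewer cells of a type and less RNA per cell cannot be told apart.

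None of the 10 genes passed the test between AX and NC. Over all genes, edgeR's quasi-likelihood test with Benjamini-Hochberg adjustment called 0 of 12264 at an adjusted p under 0.05 (0%), and the smallest adjusted p of any gene was 0.9999. DESeq2 and limma-voom also called 0. At an unadjusted p under 0.05 edgeR had 113 genes (0.921%), DESeq2 193 and limma-voom 132. Each of these counts is below the share of 0.05 that independent tests without any difference would give. The cause was not tested. Of the 10 genes, 1 (Ftl1, lower in AX) had an unadjusted p under 0.05, against 63 of all genes lower in AX (0.514%) and 50 of all genes higher (0.408%). In no member did the AX and NC libraries separate without overlap, as they did in 17 of all genes (0.139%). The fitted log2 fold change of AX over NC was above 0 for 5 of the 10 and below 0 for the other 5, with a median of -0.06, against a median of 0.02 over all genes tested. Levels below are CPM scaled by the trimmed mean of M-values (TMM), and errors are SD over 5 libraries per group. Each difference of means was also set against all arrangements of the libraries into 5 and 5 by an exact two-sided permutation test, which can give no p below 0.00794. None of the 10 permutation p-values was under 0.05.

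**Figure D1:**
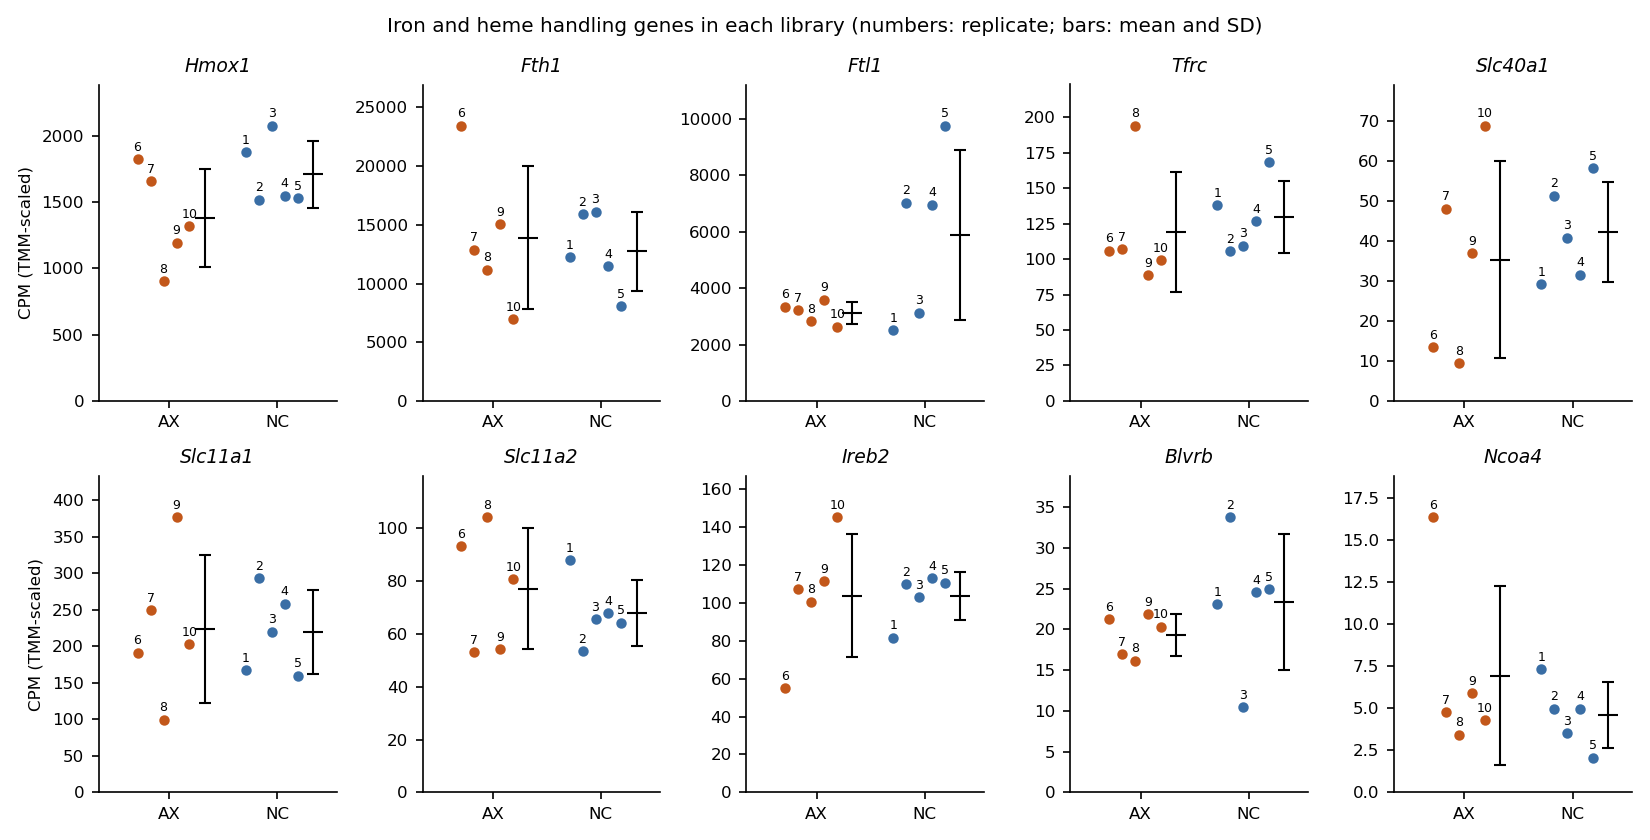
TMM-scaled CPM (y axis, from 0, a scale of its own in each panel) of the 10 genes in the 5 AX (orange) and 5 NC (blue) libraries; numbers are the replicate numbers, and the bars beside the points are the group mean and SD. The AX and NC points overlap in every panel, and for Ftl1 the 5 AX libraries sit between 2638 and 3588 CPM while NC libraries spread from 2509 to 9763 CPM.

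Hmox1 (ENSMUSG00000005413; chr8:75093591-75100596, plus strand), the enzyme that opens the heme ring, measured 1825, 1655, 905, 1193 and 1317 CPM in AX 6 to AX 10, against 1876, 1517, 2075, 1548 and 1527 CPM in NC 1 to NC 5. AX 8, AX 9 and AX 10 lay below all 5 NC libraries, while AX 6 and AX 7 lay within their range. The means were 1379 ± 367 CPM in AX and 1708 ± 254 CPM in NC, and the log2 fold change was -0.31 ± 0.22 (SE), with a 95% interval from -0.80 to 0.18 (exact permutation p = 0.143). Blvrb (ENSMUSG00000040466; chr7:27447978-27466144, plus strand) encodes biliverdin reductase B. It measured 21.3, 16.9, 16.2, 21.9 and 20.3 CPM in AX libraries, against 23.1, 33.8, 10.5, 24.6 and 24.95 CPM in NC libraries. All 5 AX values lay below the NC median of 24.6 CPM, but NC 3 was the lowest of all 10. The log2 fold change was -0.28 ± 0.27 (SE; exact permutation p = 0.357). Single NC libraries moved it in both directions: the difference of means was -7.29 CPM without NC 3 (exact permutation p = 0.00794) and -1.47 CPM without NC 2 (exact permutation p = 0.690), and the log2 fold change was -0.46 without NC 3 and -0.11 without NC 2. Within a library, the log2 ratio of Blvrb to Hmox1 in FPKM, the deposited values per length and library size, ran from -6.61 to -5.77 in AX and from -7.63 to -5.49 in NC.

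Ferritin carries iron storage. Fth1 (ENSMUSG00000024661; chr19:9982703-9985092, plus strand), the heavy chain that oxidises iron for storage, measured 23440.1, 12881, 11191, 15069 and 6985 CPM in AX libraries, against 12245, 15922, 16124, 11459 and 8082 CPM in NC libraries. AX libraries held both the highest value (AX 6) and the lowest (AX 10). The log2 fold change was 0.12 with a 95% interval from -0.64 to 0.89, and it was -0.15 without AX 6, so its sign turned without that library.

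Ftl1 (ENSMUSG00000050708; chr7:45457944-45459884, minus strand), the light chain that helps the iron core form, showed the lowest unadjusted p of the 10. It measured 3346, 3222, 2837, 3588 and 2638 CPM in AX libraries, against 2509, 7039, 3135, 6959.7 and 9763 CPM in NC libraries. NC 2, NC 4 and NC 5 stood well above the other 7 libraries, whereas NC 3 lay among the AX values and NC 1 below them. The means were 3126 ± 385 CPM in AX and 5881 ± 3020.3 CPM in NC, and the log2 fold change was -0.91 ± 0.36 (SE), with a 95% interval from -1.70 to -0.12. Its unadjusted p was 0.0275 and its adjusted p 0.9999 by edgeR's quasi-likelihood test with Benjamini-Hochberg adjustment, and the exact permutation p was 0.143. The coefficient of variation was 12.3% among AX libraries and 51.4% among NC libraries. Without NC 5 the log2 fold change was -0.65, and without NC 1 it was -1.11. Its unadjusted edgeR p was 0.00485 without NC 1 and 0.0852 without NC 5. The difference of mean CPM had an exact permutation p of 0.0317 without NC 1 and of 0.0476 without NC 3. With any other single library left out, this exact permutation p lay between 0.143 and 0.198.

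Ferritin genes have many processed copies, and reads of Ftl1 can be assigned to them. Gm10116, named Ftl1-ps1 in GENCODE M21, on chromosome 13, matches 910 bases of the Ftl1 transcript at 99.56% identity. It measured 1384, 1405, 1465, 1517 and 1675 CPM in AX libraries, against 1312, 2017, 1688, 1333 and 1771 CPM in NC libraries, with a log2 fold change of -0.13 and a standard error of 0.18. NC 4, high in Ftl1, was low in this copy. With Ftl1, Gm10116 and the pseudogene Ftl2-ps (62 counts in all) summed, the means were 4616 ± 332 CPM in AX and 7506 ± 3163 CPM in NC. The summed log2 fold change was -0.70 ± 0.31 (SE; unadjusted p 0.0424 by edgeR, exact permutation p = 0.127). The other 5 copies of Ftl1 and the 1 of Fth1 with at least 90% identity over 300 bases were not analysed here. Of the rows whose names begin with Fth or Ftl, Fth-ps2 had 12 counts and 9 Fthl17 genes had 0. Within a library, the log2 ratio of Ftl1 to Fth1 in FPKM ran from -4.51 to -3.11 in AX (median -3.71) and from -4.07 to -1.43 in NC (median -2.88). The length within FPKM, 2826 bases for Ftl1 and 866 for Fth1, sets the level of this ratio but not its differences between libraries. Counts assigned to Gm10116, 15.4% to 38.8% of those of Ftl1 and Gm10116 together, are not in it. NC 5 held the highest ratio, with the highest Ftl1 and the second-lowest Fth1 of the 10 libraries.

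**Figure D2:**
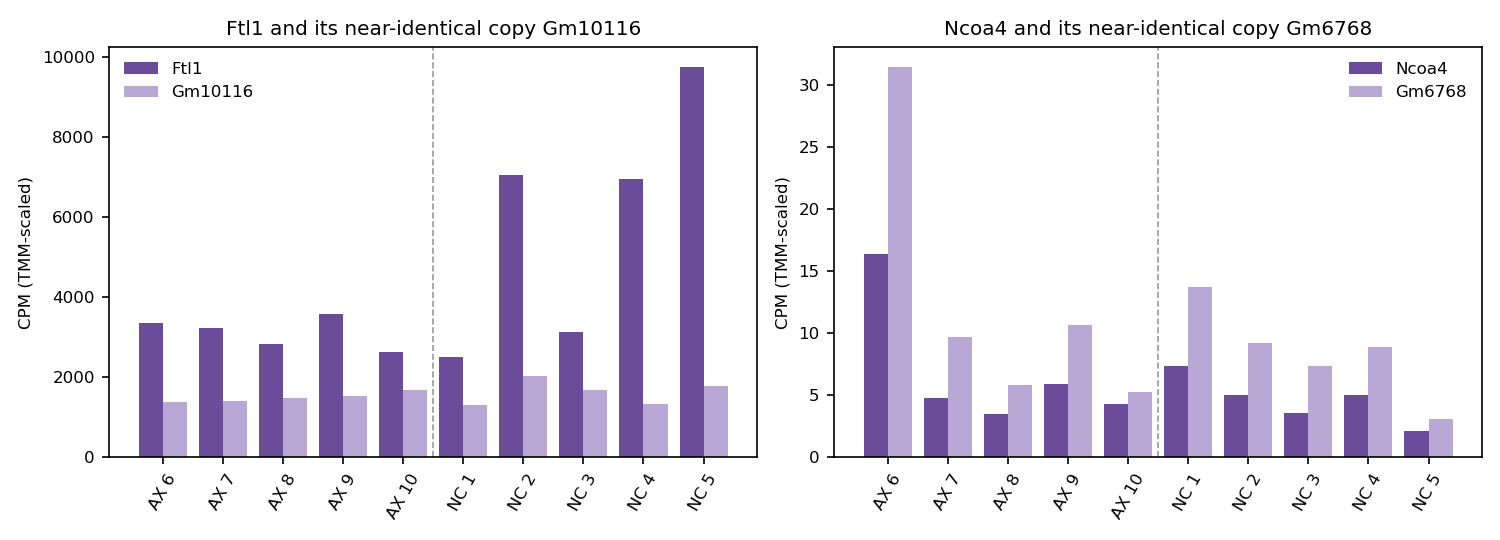
TMM-scaled CPM (y axis, from 0) of Ftl1 and its copy Gm10116 (left panel) and of Ncoa4 and its copy Gm6768 (right panel) in each library, with AX left of the dashed line and NC right of it. Ftl1 reaches 6959.7 to 9763 CPM in NC 2, NC 4 and NC 5 while Gm10116 stays between 1312 and 2017 CPM in all 10 libraries, and in the right panel both bars are highest in AX 6.

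Ncoa4 (ENSMUSG00000056234; chr14:32159865-32179855, plus strand) encodes the receptor that carries ferritin to the lysosome so that its iron is released. It measured 16.4, 4.76, 3.44, 5.90 and 4.29 CPM in AX libraries, against 7.33, 4.99, 3.53, 4.99 and 2.06 CPM in NC libraries, on 23 to 189 counts per library. AX 6 was highest and NC 1 next, the 2 libraries with the most mesothelial, stromal, erythroid and gut epithelium markers. The log2 fold change of 0.60 had a 95% interval from -0.45 to 1.65 (exact permutation p = 0.508). It was 0.01 without AX 6, 0.24 without AX 6 and NC 1, and 0.21 with the mesothelial marker level as a covariate. Gm6768, a processed copy on chromosome 12, matches 1878 bases at 99.894% identity and received more counts than Ncoa4 itself in each of the 10 libraries, from 5.26 to 31.5 CPM in AX and from 3.05 to 13.7 CPM in NC. Summed, the pair gave a log2 fold change of 0.58 ± 0.50 (SE).

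Iron movement into and within cells was read from 3 membrane proteins. Tfrc (ENSMUSG00000022797; chr16:32608920-32632794, plus strand), the transferrin receptor, measured 106, 107, 194, 88.7 and 99.5 CPM in AX libraries, against 138, 106, 109.5, 127 and 168 CPM in NC libraries. AX 8 was the highest of all 10, and the other 4 AX libraries lay below the NC median. The log2 fold change was -0.12 ± 0.24 (SE; exact permutation p = 0.611), and it ran from -0.38 without AX 8 to -0.01 without NC 5. Slc11a2 (ENSMUSG00000023030; chr15:100387898-100425072, minus strand), the proton-coupled transporter DMT1 that moves ferrous iron out of endosomes, measured 93.4, 53.1, 104, 54.3 and 80.8 CPM in AX libraries, against 87.9, 53.5, 65.8, 67.8 and 64.3 CPM in NC libraries. The AX values lay on both sides of the NC range, with 2 above it and 1 below. Its log2 fold change was 0.19 ± 0.23 (SE; exact permutation p = 0.413), and it ran from 0.05 without AX 8 to 0.30 without NC 1. Slc11a1 (ENSMUSG00000026177; chr1:74375195-74386062, plus strand), or NRAMP1, removes metals from the phagosome of macrophages and neutrophils. It measured 192, 250.2, 99.6, 377 and 203 CPM in AX libraries, against 167, 293, 220.4, 259 and 159.96 CPM in NC libraries. The AX group held both extremes, AX 9 and AX 8. Its log2 fold change was 0.03 ± 0.32 (SE), and it was -0.28 with the large peritoneal macrophage marker level as a covariate.

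Slc40a1 (ENSMUSG00000025993; chr1:45908068-45926523, minus strand) encodes ferroportin, the only known iron exporter of mammalian cells. It measured 13.4, 48.1, 9.49, 37.0 and 68.8 CPM in AX libraries, against 29.1, 51.3, 40.9, 31.5 and 58.3 CPM in NC libraries. AX 6 and AX 8 were lower than all NC libraries, and AX 10 was higher than all of them. The log2 fold change was -0.26 ± 0.48 (SE; exact permutation p = 0.579), and it ran from -0.65 without AX 10 to -0.01 without AX 8. The log2 ratio of Slc40a1 to Tfrc in FPKM, export beside uptake, ran from -4.51 (AX 8) to -0.69 (AX 10) in AX and from -2.40 to -1.20 in NC. Ireb2 (ENSMUSG00000032293; chr9:54863755-54912534, plus strand), whose protein binds the hairpins printed above when iron is scarce, measured 54.8, 107, 100.5, 111 and 145 CPM in AX libraries, against 81.6, 109.7, 103, 113 and 111 CPM in NC libraries. Its log2 fold change was 0.0024 with a 95% interval from -0.51 to 0.51 (exact permutation p = 0.992). AX 6 was the lowest and NC 1 the next, the reverse of the order in Ncoa4. These 2 libraries also had the most mesothelial, stromal, erythroid and gut epithelium markers. Without AX 6 and NC 1, Ireb2 had a log2 fold change of 0.09.

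**Figure D3:**
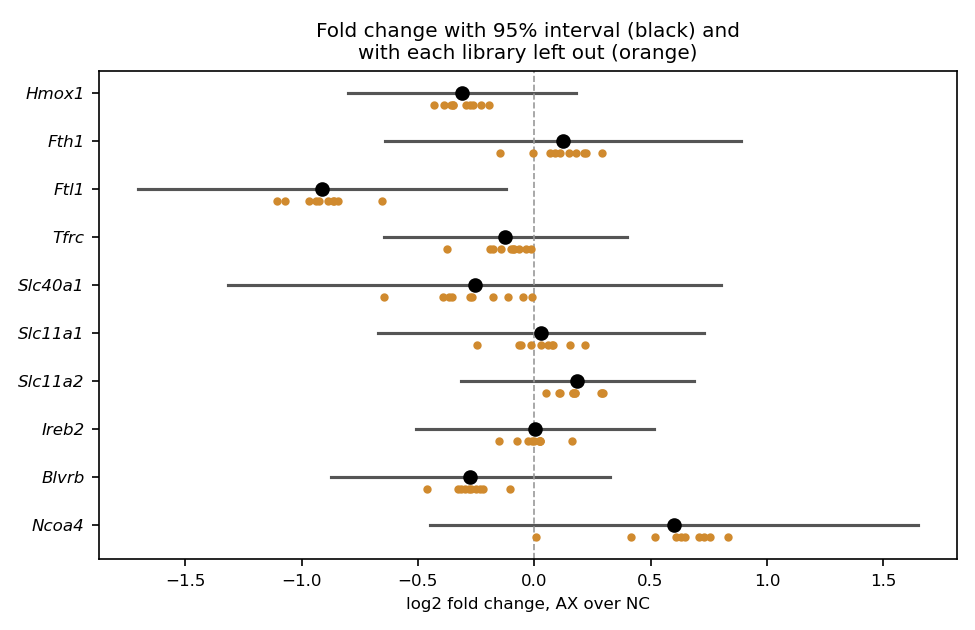
Log2 fold change of AX over NC (x axis) for each gene: black points are the estimates from all 10 libraries, grey bars their 95% intervals, and orange points the estimates with 1 library left out at a time. Ftl1 is the one gene whose interval lies wholly below 0, from -1.70 to -0.12, and the orange points of Fth1, Slc11a1 and Ireb2 lie on both sides of 0.

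The genes also differed in how far the libraries spread. Over all 10 libraries, the coefficient of variation was 69.2% for Ncoa4, 55.4% for Ftl1 and 48.5% for Slc40a1, higher than in 86.8%, 78.7% and 72.5% of the genes tested. Hmox1 (22.3%) and Ireb2 (22.4%) varied least, below the median of 33.5% over all genes tested. Set per gene length, the deposited FPKM medians over 10 libraries were 15790 for Fth1, 1136 for Ftl1, 575 for Hmox1 and 25.9 for Slc11a1. Over the 10 libraries no pair of neighbours among these 4 overlapped. Below Slc11a1 came Ireb2 (18.7 FPKM), Tfrc (11.99 FPKM), Slc11a2 (8.88 FPKM), Blvrb (7.89 FPKM), Slc40a1 (3.67 FPKM) and Ncoa4 (0.71 FPKM). From Slc11a1 downwards each gene overlapped with the next over the libraries, and was above it in 7 to 9 of the 10. The gene length within FPKM affects this order. For Ftl1 it came to 2826 bases, more than the 1941 bases of its locus, and per kilobase of the principal GENCODE transcript the median levels were 13523 CPM for Fth1, 3393 CPM for Ftl1 and 980 CPM for Hmox1, with Ireb2 (18.8 CPM) then below Tfrc (22.1 CPM), Slc11a2 (22.1 CPM) and Blvrb (21.002 CPM).

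**Figure D4:**
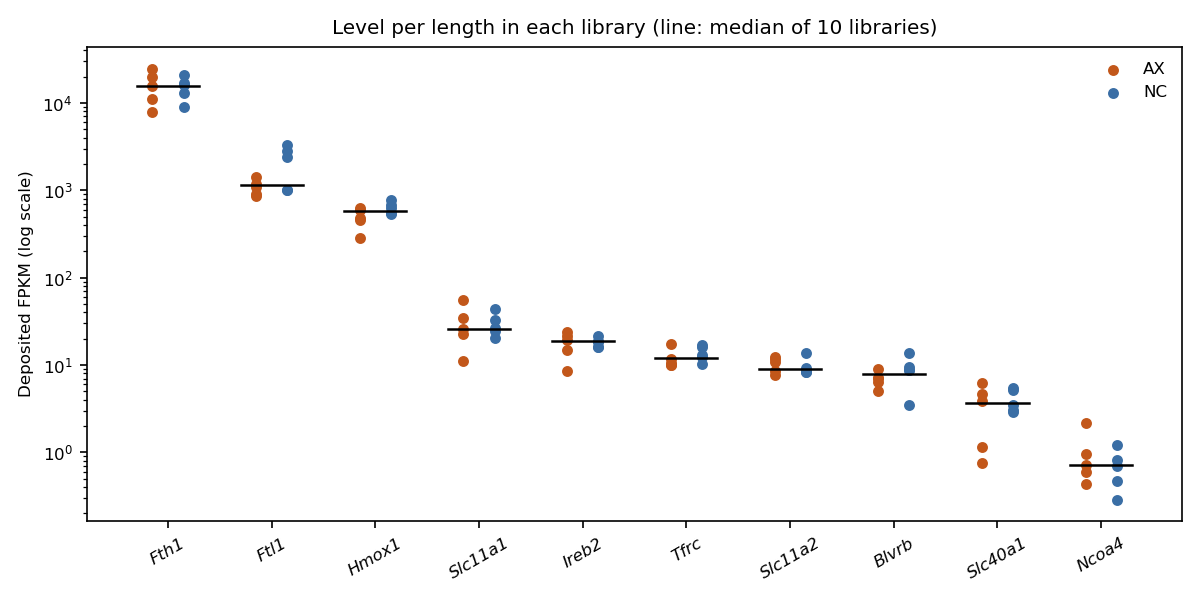
Deposited FPKM (y axis, log scale) of the 10 genes in AX (orange) and NC (blue) libraries, ordered by the median over 10 libraries (black line). Fth1, Ftl1 and Hmox1 lie apart at the top, with medians of 15790, 1136 and 575 FPKM, and the genes from Slc11a1 downwards overlap with their neighbours.

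Further genes were read from 7 lists of 62 genes, 6 lists of iron and heme handling and 1 of NRF2 targets outside iron, of which 58 were in the table and 52 passed the filter. None was called. Of the 46 tested genes in the 6 iron and heme lists, 18 had a fold change above 0 and 28 below, with a median log2 fold change of -0.04. Of 8 tested genes of heme uptake, transport and breakdown, 3 were above 0 and 5 below (median -0.05). Blvra, the other biliverdin reductase, averaged 21.5 ± 1.8 CPM in AX and 29.2 ± 8.4 CPM in NC (log2 fold change -0.44 ± 0.21, SE), and Hp, haptoglobin, which binds free hemoglobin, averaged 3530 ± 1019 CPM in AX and 4930.2 ± 1488 CPM in NC (-0.48 ± 0.28, SE). The constitutive oxygenase Hmox2 had a log2 fold change of -0.06 and the heme transporter Slc48a1 one of -0.15. In heme synthesis 1 of 8 was above 0 and 7 below (median -0.12), with Alas1, the rate-limiting enzyme outside red cell precursors, at -0.19.

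Among 6 tested genes of iron uptake and reduction 3 were above 0 and 3 below (median 0.12). Slc39a8, a metal importer, measured 1199 CPM in AX 6 and 90.9 to 307 CPM in the other AX libraries, against 73.7 to 385 CPM in NC libraries, of which NC 1 was the highest. Without AX 6 its log2 fold change was 0.23, against 1.23 with it. Steap4, a metalloreductase, measured 844 CPM in AX 6 and 131 to 344 CPM in the other AX libraries, against 160.1 to 418 CPM in NC libraries. Its log2 fold change was 0.54, and 0.006 without AX 6. Lcn2, which binds bacterial siderophores, averaged 3252 ± 1137 CPM in AX and 4081 ± 1579 CPM in NC. The log2 fold change of Lcn2 was -0.33, and -0.09 without NC 2. In the list of iron delivery, export partners and the hepcidin axis, 4 of 7 were above 0 and 3 below (median 0.06). Cp, the ferroxidase ceruloplasmin, measured 328 CPM in AX 6 and 40.4 to 82.7 CPM in the other AX libraries, against 38.8 to 127 CPM in NC libraries, again with NC 1 the highest. Its log2 fold change was 0.82, and -0.08 without AX 6.

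Of 7 tested genes of iron sensing 2 were above 0 and 5 below (median -0.05). Spic, a transcription factor of iron-recycling macrophages, was the 1 gene of the 52 with an unadjusted p under 0.05. It measured 9.002, 10.8, 5.53, 7.67 and 10.4 CPM in AX libraries, against 18.5, 10.8, 14.6, 9.15 and 20.8 CPM in NC libraries, so the groups overlapped. Its log2 fold change was -0.77 ± 0.28 (SE; exact permutation p = 0.0317, edgeR adjusted p 0.9999 with Benjamini-Hochberg adjustment). Bach1, the heme-sensing repressor of Hmox1, had a log2 fold change of 0.18, Nfe2l2, which encodes its activator NRF2, one of 0.01, and Aco1, the other iron regulatory protein, one of -0.05. Among 10 tested mitochondrial iron and iron-sulfur cluster genes 5 were above 0 and 5 below (median -0.01), with the iron importers Slc25a37 at 0.13 and Slc25a28 at 0.35. Of 6 NRF2 targets outside iron 1 was above 0 and 5 below (median -0.29), among them Slc7a11, the cystine importer, at -0.56 with means of 934 ± 416 CPM in AX and 1373 ± 651 CPM in NC. NC 3 was the highest library, at 2379 CPM, and without it the log2 fold change of Slc7a11 was -0.27.

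**Figure D5:**
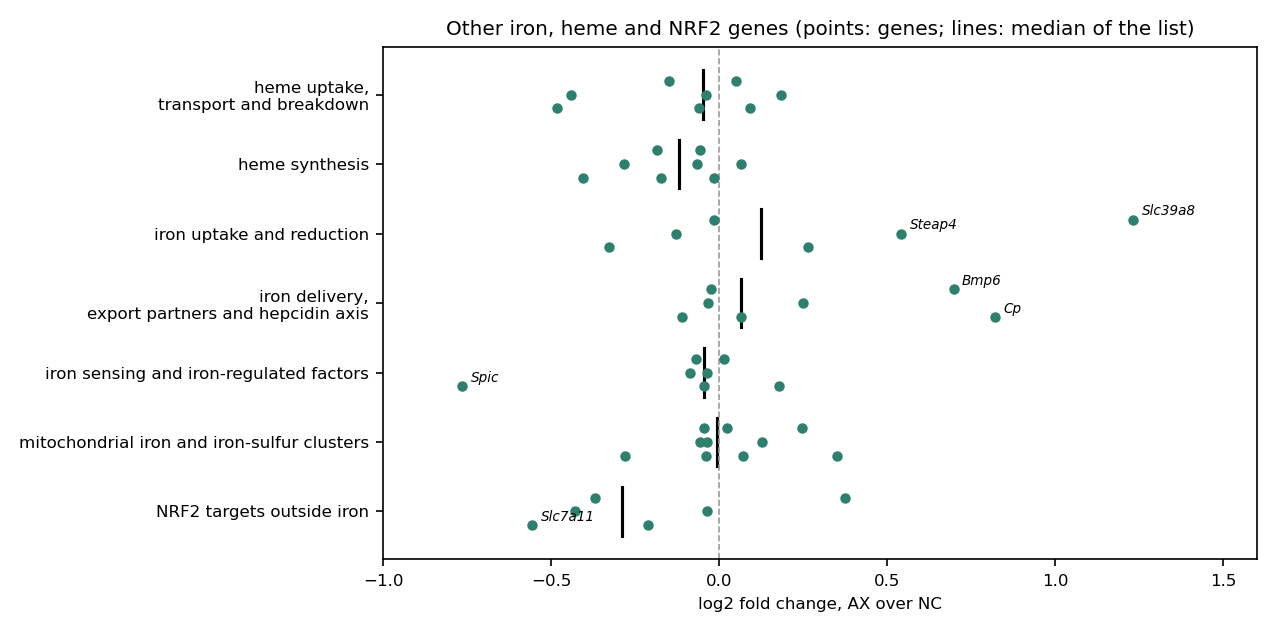
Log2 fold change of AX over NC (x axis) of the 52 tested genes in 7 lists of iron, heme and NRF2 genes (rows); points are genes and black lines the list medians, which run from -0.29 for NRF2 targets to 0.12 for iron uptake and reduction. Slc39a8 lies farthest to the right at 1.23 and Spic farthest to the left at -0.77.

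For 3 of the genes, the most similar profiles over the 10 libraries were sought among 8007 genes with a mean log2 CPM of at least 3. The points share library depth and cell mixture, and the genes were chosen for their correlation, so no p is given. Hmox1 was most like Slc7a11 (Pearson r 0.90, Spearman rho 0.93), Clec4d (r 0.89, rho 0.76) and Serf1 (r 0.88, rho 0.83). All 4 profiles were lowest in AX 8 and highest in NC 3, and without these 2 libraries r was 0.78 for Slc7a11, 0.65 for Clec4d and 0.77 for Serf1. Tfrc was most like Tbc1d4 (r 0.90, rho 0.70), Tap2 (r 0.90, rho 0.72) and Uhrf1 (r 0.89, rho 0.76), and without AX 8 and NC 5 r was 0.66 for Tbc1d4, 0.45 for Tap2 and 0.75 for Uhrf1. Slc40a1 was most like Cds2 (r 0.94, rho 0.67), Vps9d1 (r 0.93, rho 0.76) and E2f1 (r 0.93, rho 0.87), all 3 lowest in AX 8, and without AX 6 and AX 8 r was 0.58 for Cds2, 0.64 for Vps9d1 and 0.76 for E2f1.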

How the data were processed

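Per the labels' protocols, polyadenylated RNA was extracted with MJzol, and the VAHTS Universal V6 kit was used for the libraries. HISAT2 2.0.4 and mm10 are listed in the submitters' processing notes. The sources used here do not say how genes were counted (tool, annotation release, strand: not given). The authors deposited raw counts, whole numbers per gene that were not normalised. The deposited FPKM values carry the same counts per gene length and library total, per the file headers and values. They were used for levels between genes, for ratios and in 1 alternative.

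The count table was fitted with edgeR 4.0.16 under R 4.3.3 (filterByExpr, TMM scaling, quasi-likelihood F test over all genes, two-sided, no covariates, Benjamini-Hochberg adjustment, threshold 0.05). Alternatives were DESeq2 1.42.0, limma 3.58.1 (voom, and log2(FPKM + 1), keeping genes of at least 1 FPKM in 5 libraries), other scalings, dropping the filter or raising it to 50 counts in 5 libraries, marker levels as covariates, and leaving out libraries. Permutation tests enumerated all arrangements in Python 3.11.15, and Spearman rho was computed with scipy 1.17.1. Copies were found with BLAST 2.17.0 against GENCODE M21 transcripts. Summing copies and dividing by transcript length were chosen after seeing the data. Tested on simulated data for this comparison (12095 genes), edgeR recovered 11 of 100 planted 2-fold differences and 69 of 100 planted 4-fold ones, with 3 false calls.

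The genes and lists were chosen with earlier results of these data known. The 10 genes are reported in full. In each list up to 4 genes with the smallest p could be named, and Hmox2, Blvra, Slc48a1, Hp, Lcn2, Bach1, Nfe2l2, Slc25a37, Aco1, Steap4 and Cp always. Rows beginning with Ftl or Fth were given by their counts. For Hmox1, Tfrc and Slc40a1 the 3 genes of largest Pearson r were named, without receptor segments, Rik clones and predicted genes. Listed symbols not matched in the table (Flvcr1, Flvcr2, Tf, Hjv and the erythroid marker Ahsp) were not analysed here. Gm5475, antisense to Slc11a2, had 3 counts; 2 further genes that overlap Ftl1 in GENCODE M21 were not analysed here.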

Additional observations from a re-analysis of the deposited data

Results flagged for a closer look

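A library was picked out where its gap to the nearest of the other 4 in its group exceeded 0.71 of the group's range, which chance does in about 1 in 20 groups. Among the 84 groups of the 10 iron and heme genes and the 32 further genes eligible to be named, 6 were picked out (7.14%). Over all 62 tested genes of these lists it was 12 of 124 groups (9.68%). Tfrc in AX 8 measured 194 CPM, against 88.7 to 107 CPM in the other AX libraries. Ncoa4 in AX 6 measured 16.4 CPM, against 3.44 to 5.90 CPM. In the same library Slc39a8 measured 1199 CPM, against 90.9 to 307 CPM, and Cp 328 CPM, against 40.4 to 82.7 CPM. Bmp6, a ligand that drives hepcidin in the liver, measured 28.4 CPM in AX 6, against 0.49 to 4.44 CPM in the other AX libraries. All 4 genes picked out in AX 6 were highest in NC 1 among NC libraries. AX 6 and NC 1 are the 2 libraries with the highest mesothelial, stromal, erythroid and gut epithelium marker sums. The part of each cell type in these values was not tested. With the mesothelial marker level as a covariate the log2 fold change of AX over NC was 0.48 for Slc39a8, 0.14 for Cp and -0.66 for Bmp6, against 1.23, 0.82 and 0.70 without it. Iscu, a scaffold for iron-sulfur clusters, measured 76.7 CPM in NC 5, against 54.8 to 60.4 CPM in the other NC libraries.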

How the results depend on the processing

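No paired analysis was possible because the replicate numbers of AX (6 to 10) and NC (1 to 5) are not shared. No member passed the adjusted threshold under any alternative run (lowest adjusted p 0.999), and the count over all genes was 0 everywhere but without NC 3, where 1 gene that is not a member was lower in AX. The log2 fold changes of Hmox1, Ftl1, Tfrc, Slc40a1, Slc11a2, Blvrb and Ncoa4 kept their sign under every alternative that gave a value. That of Ftl1 ranged from -1.13 to -0.65 and that of Hmox1 from -0.43 to -0.20. Those of Slc40a1 (-0.65 to -0.0083), Tfrc (-0.38 to -0.012) and Ncoa4 (0.0066 to 0.83) kept their sign but came close to 0. Near 0, 3 further genes turned sign. Fth1 was at -0.0012 by limma on FPKM, -0.082 with the mesothelial covariate and -0.16 without AX 6 and NC 1, and ran from -0.15 to 0.29 with 1 library left out. Slc11a1 was at -0.062 by limma-voom, -0.11 by limma on FPKM, -0.28 with the macrophage covariate and -0.0036 without AX 6 and NC 1, and ran from -0.24 to 0.22 with 1 library left out. Ireb2 was at -0.055 by limma-voom, -0.036 with library totals only and -0.10 by limma on FPKM, and ran from -0.15 to 0.16 with 1 library left out. Differences of mean CPM turned sign in the same genes: they ran from -1235 to 2879 CPM for Fth1, from -33.8 to 35.5 CPM for Slc11a1 and from -10.2 to 12.4 CPM for Ireb2 with 1 library left out. On the log2(CPM + 0.5) scale the difference was -0.058 for Slc11a1 and -0.054 for Ireb2, which was at -2.64 CPM with library totals only. With 1 library left out the difference ran from -3598 to -1784 CPM for Ftl1, with an exact permutation p under 0.05 without NC 1 or NC 3, and from -7.29 to -1.47 CPM for Blvrb, with a p under 0.05 without NC 3. The heme uptake list had a median log2 fold change of -0.21 with the mesothelial covariate and -0.22 without AX 6 and NC 1, and of -0.26 to -0.016 with 1 library left out. The iron uptake list had -0.12 by limma on FPKM, and -0.15 to 0.20 with 1 library left out. Per kilobase of principal transcript the median levels were 980 CPM for Hmox1, 3393 CPM for Ftl1, 22.1 CPM for Tfrc, 11.5 CPM for Slc40a1, 91.4 CPM for Slc11a1, 22.1 CPM for Slc11a2 and 21.002 CPM for Blvrb, which shows the weight of the assumed length. List medians near 0 also turned sign, in 11 of 23 alternatives for mitochondrial iron (-0.078 to 0.11), 4 for iron delivery (-0.078 to 0.16), 4 for iron sensing (-0.12 to 0.048) and 3 for iron uptake. The causes of the sign changes were not tested. The median standard error was 0.32 on the log2 scale. In simulated data, in which genes varied independently, 11 of 100 differences of 2-fold were recovered. The low counts of Ncoa4 (from 23) and Slc40a1 (from 91) limit both genes further. Ncoa4 did not reach 1 FPKM in 5 libraries and has no value in that alternative.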

Other observations

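AX 8 stood at an end of the range in 5 of the 10 iron and heme genes, a pattern noticed after the values were seen. It was the lowest of 10 libraries in Hmox1, Slc40a1 and Slc11a1 and the highest in Tfrc and Slc11a2, that is lowest in 3 and highest in 2 of 10, against 13.8% and 10.5% of all 12264 genes tested. All 6 NRF2 targets outside iron were also lowest in AX 8. Nqo1, a quinone reductase, measured 2.61 CPM there and 13.1 to 21.1 CPM in the other AX libraries, against 15.6 to 21.005 CPM in NC libraries. Gclm, a subunit of the enzyme that starts glutathione synthesis, measured 15.4 CPM in AX 8 and 26.9 to 44.4 CPM in the other AX libraries, against 26.0 to 67.9 CPM in NC libraries. Slc7a11 measured 460.2 CPM in AX 8 and 669.99 to 1458 CPM in the other AX libraries, against 709 to 2379 CPM in NC libraries. AX 8 also held the highest neutrophil marker sum (12039 CPM), but S100a9 alone gave 7864 CPM of it. S100a8 (1871 CPM), Ly6g (22.3 CPM) and Csf3r (141 CPM) were not highest in AX 8, and reached 3241, 43.0 and 281 CPM in NC libraries. The remaining markers of the list are not given singly. After AX 10, AX 8 had the largest share of counts on mitochondrially encoded genes. The part of neutrophils and of mitochondrial counts in the values of AX 8 was not tested. Without AX 8 the log2 fold change of AX over NC was -0.20 for Hmox1 and -0.01 for Slc40a1.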
